A study of Homo sapiens with 60 samples.

Results

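Astragali Radix, the dried root of astragalus, was given as an ethanol extract to SW1783 cells at 220 and at 44 µg/mL, and the 3 libraries of the higher dose are compared here with the 3 libraries of the lower one. They are 6 of the 60 libraries of the series and were chosen by their labelled extract and dose, with no measured value in the choice. SW1783 is an established human astrocytoma line. RNA was taken after 24 h of exposure, and all libraries of the series were made from this line. The series text sets the top dose of an extract at 500 µg/mL, or at its IC20 where that is lower, with the next doses at steps of 5-fold, so 220 µg/mL was the top dose of this extract and 44 µg/mL the middle one. The question is which transcripts respond only above 44 µg/mL and which move in opposite directions at the 2 doses.

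To place the medium dose, 2 baselines were used. The first was the DMSO vehicle (3 libraries), for which the labels and the series text give different DMSO concentrations. The second was the low dose of Cinnamomi Cortex, cinnamon bark, at 20 µg/mL (3 libraries). That group is not untreated, but the codes of its libraries start with the same number as those of the Astragali Radix libraries, whereas the codes of the vehicle libraries do not. The low dose of Astragali Radix, 8.8 µg/mL, served as a baseline only in an alternative, because 2 of its 3 libraries stand apart from the third and from each other. The labels number the replicates but do not say that they were separate cultures, so the p-values measure the spread between these libraries, which may be technical.

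Cells that meet damaged proteins, a lack of amino acids or reactive compounds switch on separate gene programmes. Heat shock factor drives chaperones, which refold proteins, through heat shock elements in their promoters. The integrated stress response works through ATF4, a transcription factor that raises DDIT3 (CHOP), amino acid transporters and synthetases. NRF2, normally held back by KEAP1, drives antioxidant and detoxifying enzymes. In dividing cells, CDKN1A (p21) blocks cyclin-dependent kinases, and the genes of mitosis, which carry CCAAT boxes and a cell cycle homology region in their promoters, fall when cells leave the cycle.

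Promoter stretches of genes on which the results turn are shown because the chaperone genes and the mitotic genes each moved together between the doses. They are from the RefSeq promoter table (GRCh38.p14), each ends at the base before the annotated start, and capitals mark the motif searched. For the chaperones HSPA6, HSPA1A and HSPA8 this was the heat shock element, searched as GAANNTTC or TTCNNGAA on both strands.
HSPA6, chr1:161524440-161524539, plus strand: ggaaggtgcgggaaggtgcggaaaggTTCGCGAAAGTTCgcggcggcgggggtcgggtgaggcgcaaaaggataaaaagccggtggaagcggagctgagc
HSPA1A, chr6:31815423-31815542, plus strand: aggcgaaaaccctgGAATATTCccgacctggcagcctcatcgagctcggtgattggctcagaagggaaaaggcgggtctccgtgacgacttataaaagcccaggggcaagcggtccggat
HSPA8, chr11:123062137-123062216, minus strand: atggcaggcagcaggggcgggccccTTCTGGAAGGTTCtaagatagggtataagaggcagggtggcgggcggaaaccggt
In HSPA6 and HSPA8 the capitals cover 2 overlapping matches. For ASNS, the asparagine synthetase gene, capitals mark a match to TGATGNAAN, a form of the amino acid response element.
ASNS, chr7:97872409-97872498, minus strand: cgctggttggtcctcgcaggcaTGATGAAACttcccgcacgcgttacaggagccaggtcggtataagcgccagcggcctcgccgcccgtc
For the mitotic genes MKI67, CCNB2 (cyclin B2) and PLK1 (polo-like kinase 1), capitals mark TTTGAA, the cell cycle homology region.
MKI67, chr10:128126424-128126483, minus strand: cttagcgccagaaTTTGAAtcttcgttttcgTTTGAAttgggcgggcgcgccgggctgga
CCNB2, chr15:59105086-59105145, plus strand: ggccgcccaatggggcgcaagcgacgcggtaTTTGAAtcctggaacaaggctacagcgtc
PLK1, chr16:23678829-23678888, plus strand: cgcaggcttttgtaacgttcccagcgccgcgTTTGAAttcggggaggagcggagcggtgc
Within the 250 bases before the start, 7 of 14 heat shock chaperone genes with a promoter in the table (50%) held the heat shock element, against 11.7% of all 27305 promoters. The element was present in 4 of 15 co-chaperone genes (26.7%). TTTGAA was present on either strand in 13 of 21 genes of the G2/M and mitosis list (61.9%), against 13.6% of all promoters. CCAAT was present in 19 of 21 (90.5%), against 33%. All motifs of these counts were searched on both strands. TGATGNAAN was present in 3 of 14 integrated stress response genes (21.4%), in 1 of 14 amino acid genes (7.14%) and in 2 of 14 aminoacyl-tRNA synthetase genes (14.3%), against 3.18% of all promoters. The 3 stress response genes were ATF3, CHAC1 and FGF21. FGF21 had too few counts to be tested, so these 14 genes with a promoter are not the 14 tested below. TGACNNNGC, the antioxidant response element, was present in 4 of 18 NRF2 target genes (22.2%), against 11%. TCACNCCAC, a form of the sterol regulatory element, was present in 1 of 18 cholesterol genes (5.56%), against 0.875%. These matches are descriptions of letters in the windows searched.

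The step from 44 to 220 µg/mL changed most of the measured transcriptome. Of 17676 genes tested, 11743 (66.4%) differed between the high and the medium dose at an adjusted p below 0.05 (edgeR quasi-likelihood test, Benjamini-Hochberg), 5757 of them higher (32.6%) and 5986 lower (33.9%) at the high dose. A difference of 2-fold or more was called for 4264 genes (24.1%), with 1726 higher (9.76%) and 2538 lower (14.4%). The values of the 2 groups did not overlap for 12969 genes (73.4%), and the median log2 difference over all genes tested was -0.03. Total counts in the 6 libraries ranged from 20764544 to 32802531. The 20 most abundant genes took 11.9% to 12.2% of the counts in the high-dose libraries and 9.74% to 9.98% in the medium-dose libraries, and the TMM scaling factors were 0.75 to 0.78 in the high-dose libraries and 0.99 to 1.01 in the medium-dose libraries. Scaling by library totals alone therefore lowered the median of all genes by a further 0.39 on the log2 scale, and with it 25.1% of the called genes were higher, against 49% with TMM. Upper quartile scaling lowered that median by 0.13. In bulk RNA of this kind, fewer cells of a type and less RNA per cell cannot be told apart.

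The same 5-fold step from 100 to 500 µg/mL changed far fewer genes in the other extracts of the series. It gave 21 called genes (0.119%) for Cinnamomi Cortex, 97 (0.549%) for Samul-tang, 242 (1.37%) for Sagunja-tang, 412 (2.33%) for Palmul-tang and 1010 (5.71%) for Sibjeondaebo-tang, the formulas of several herbs. The doses differ from those of Astragali Radix, and the differences between the extracts were not tested. HMOX1 was called higher at this step in all 5 extracts, by 1.16 to 2.29 on the log2 scale. DDIT3 was called higher in Sagunja-tang (0.43), Palmul-tang (0.55) and Sibjeondaebo-tang (0.55), CDKN1A in Sagunja-tang (0.36, adjusted p = 0.00199), and MKI67 was called lower in Sibjeondaebo-tang (-0.58, adjusted p = 0.00424). HSPA6 was called in none of the 5 (edgeR quasi-likelihood test) and averaged at most 0.36 CPM at their high doses.

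The labelled cell type was checked with 14 astrocyte and glial markers. GFAP, S100B, AQP4, ALDH1L1, SOX2 and FABP7, which define mature astrocytes or neural precursors, had at most 4 counts in any high-dose, medium-dose or vehicle library and were not tested. Vimentin (VIM) was measured at 8133, 7928 and 6714 CPM in the high-dose libraries and 4849.9, 4677 and 4712 CPM in the medium-dose libraries, and CD44, the hyaluronan receptor, at 3072, 2869 and 2916 CPM against 2771, 2755 and 2624 CPM. Other genes of the list that astrocytes express were measured in every library. GJA1, the gap junction protein connexin 43, had 370.2, 377 and 337 CPM in the high-dose libraries and 245, 249.1 and 245 CPM in the medium-dose libraries, CLU, the chaperone clusterin, had 279, 250.5 and 209 CPM and 114, 112 and 104 CPM, SOX9, a glial transcription factor, had 81.3, 78.2 and 75.0 CPM and 69.8, 63.4 and 65.5 CPM, and SLC1A3, a glutamate transporter, had 16.1, 15.8 and 16.1 CPM and 17.4, 17.1 and 16.7 CPM. GFAP, S100B, AQP4, ALDH1L1, SOX2 and FABP7 were thus at or near 0 at both doses, while GJA1, CLU, SOX9, SLC1A3, VIM and CD44 were measured. Over all genes tested 32.6% were higher at the high dose and 33.9% were lower. Of the 8 markers tested, 4 were higher at the high dose, 1 was lower and 3 were not called, while library totals gave 3 higher and 4 lower. The lower one was NES, nestin, with 2.16, 2.40 and 2.21 CPM in the high-dose libraries and 5.09, 5.08 and 6.39 CPM in the medium-dose libraries. Of 8 epithelial markers EPCAM, CDH1 and ESRP1 had at most 3 counts in those libraries. Of the 5 tested 4 were higher at the high dose, and with library totals none was called in either direction. The keratin gene KRT7 had 525, 494 and 398 CPM and 382, 367 and 392 CPM, and KRT18 had 118, 102 and 85.3 CPM and 85.4, 85.6 and 86.8 CPM, so both were well measured at both doses. Of 7 neuronal markers DCX and STMN2 had at most 4 counts, and of the 5 tested 2 were higher and 2 lower. TUBB3, a neuronal tubulin, had 69.3, 61.4 and 53.2 CPM in the high-dose libraries and 80.3, 78.2 and 76.6 CPM in the medium-dose libraries, and MAP2, a dendrite protein, had 22.9, 23.5 and 27.2 CPM and 8.66, 8.31 and 8.91 CPM.

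HSPA6, an inducible HSP70 chaperone that most unstressed cells hardly transcribe, gave the largest rise of any named gene. The gene (ENSG00000173110) lies at chromosome 1, 161524540 to 161526910. It had 247, 178 and 104 CPM in the high-dose libraries, against 0.335, 0.560 and 0.370 CPM in the medium-dose libraries. Every high-dose library was far above every medium-dose library, and the medium-dose libraries were near the baselines, which averaged 0.308 CPM for Cinnamomi Cortex low dose and 0.178 CPM for the vehicle. The fitted log2 difference was 8.73 ± 0.28 (SE, edgeR quasi-likelihood test, adjusted p = 1.36e-29), which is 424-fold.

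CDKN1A (ENSG00000124762, chromosome 6, 36676460 to 36687339) had 1289.8, 1304 and 1119 CPM in the high-dose libraries, against 31.1, 31.8 and 27.98 CPM in the medium-dose libraries. The groups did not overlap, and the medium dose lay near both baselines, which averaged 26.2 CPM for Cinnamomi Cortex low dose and 27.0 CPM for the vehicle. Its log2 difference between the doses was 5.35 ± 0.08 (SE, adjusted p = 5.01e-42). DDIT3 (ENSG00000175197, chromosome 12, 57516588 to 57521737), which encodes the stress transcription factor CHOP, had 376, 401 and 384 CPM in the high-dose libraries, against 41.7, 42.6 and 38.4 CPM in the medium-dose libraries, a log2 difference of 3.24 ± 0.092 (adjusted p = 1.21e-31). At 44 µg/mL DDIT3 was already above both baselines, by 0.43 ± 0.09 over the vehicle (adjusted p = 0.000459) and by 0.59 ± 0.09 over Cinnamomi Cortex low dose (adjusted p = 4.11e-06).

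**Figure D1:**
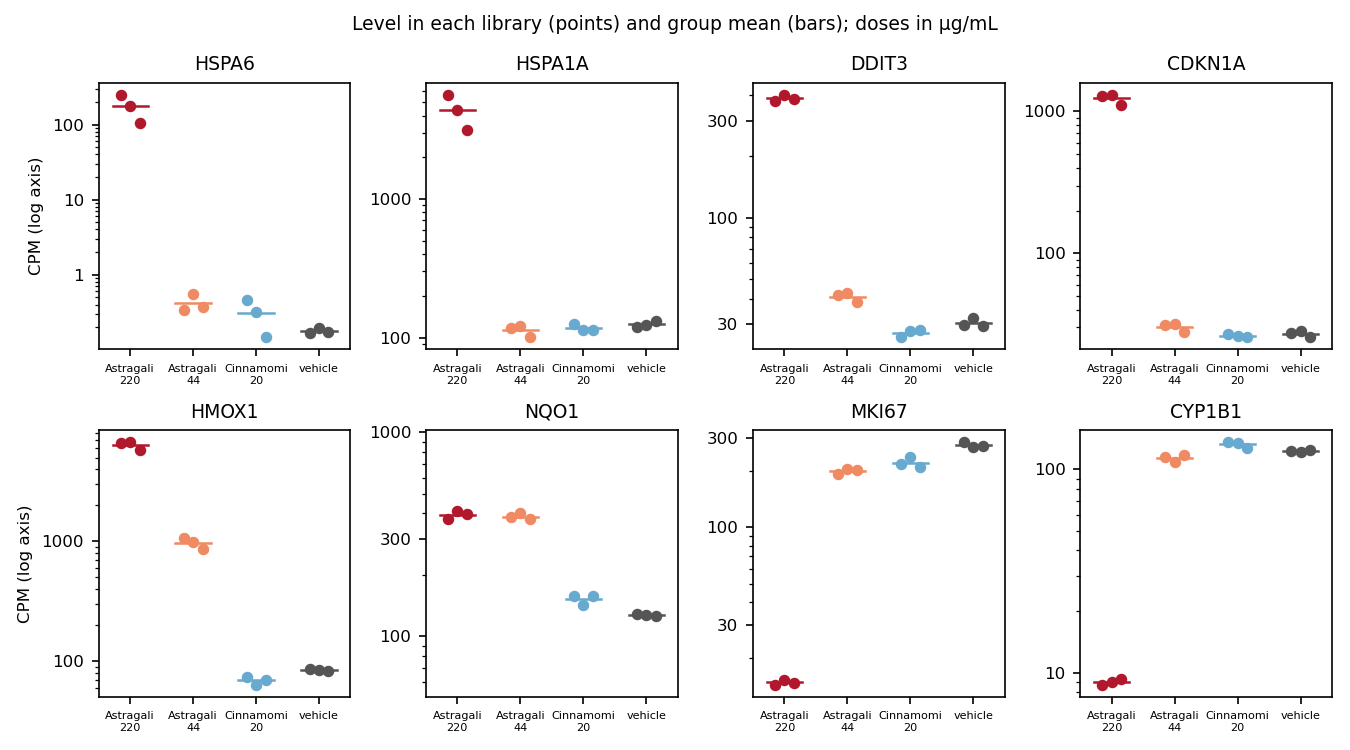
CPM on a log axis of 8 genes in the 3 libraries (points) of Astragali Radix 220 µg/mL, Astragali Radix 44 µg/mL, Cinnamomi Cortex 20 µg/mL and the vehicle, with the group mean as a bar. HSPA6, HSPA1A and CDKN1A lie near both baselines at 44 µg/mL and high at 220 µg/mL, HMOX1 is raised at both doses, NQO1 stays at its 44 µg/mL level, and MKI67 and CYP1B1 drop at 220 µg/mL.

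All 15 heat shock chaperones tested rose at the high dose, 14 of them at least 2-fold, with a median log2 difference of 1.74, where 32.6% of all genes tested rose and 9.76% rose at least 2-fold. At 44 µg/mL 1 of the 15 was higher and 1 lower than the vehicle, where 7.75% of all genes tested were higher and 8.81% lower. Against Cinnamomi Cortex low dose 1 was higher and none was lower. HSPA1A, the main inducible HSP70, had 5612, 4365 and 3158 CPM in the high-dose libraries, against 117, 121 and 100.5 CPM in the medium-dose libraries (log2 difference 5.28 ± 0.16, adjusted p = 3.03e-30). Its near-identical neighbour HSPA1B had 3919.8, 2797 and 1988 CPM, against 123, 121 and 101 CPM. Reads of this pair can be split between them by the counting, so the single values are uncertain while both copies are high in the same libraries. CRYAB, a small heat shock protein, rose by 5.59 ± 0.23 on the log2 scale.

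Of 18 co-chaperone and chaperonin genes, 17 rose, 13 of them at least 2-fold, and 1 was not called. Among all genes tested 32.6% rose, and 9.76% rose at least 2-fold. DNAJA4 had 60.5, 54.3 and 41.1 CPM in the high-dose libraries, against 2.81, 2.04 and 2.69 CPM in the medium-dose libraries. DNAJB1, the main HSP40 partner of HSP70, had 1780.0, 1384 and 896 CPM, against 153, 147 and 142 CPM (log2 difference 3.20 ± 0.11, adjusted p = 6.46e-29). BAG3, which hands chaperone clients to autophagy, had 718, 582 and 391 CPM, against 67.4, 64.4 and 61.0 CPM. In all of these genes the lowest high-dose library was still several times above the highest medium-dose library, and the high-dose libraries differed widely among themselves.

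That spread was shared by the chaperone genes. Among genes of at least 5 CPM at the high dose, 12 of 14 heat shock chaperones (85.7%) and 16 of 18 co-chaperones (88.9%) were highest in high-dose replicate 1 and lowest in replicate 3, against 2776 of 10786 genes (25.7%). The median ratio of replicate 1 to replicate 3 was 1.51 for the heat shock chaperones, 1.17 for the co-chaperones and 1.01 over all genes. The G2/M and mitosis genes had the same order in 18 of 24 cases, with a median ratio of 1.26. The integrated stress response factors had it in 4 of 14 cases and the NRF2 targets in 6 of 26, with median ratios of 1.13 and 1.00. The order was not particular to chaperones and mitotic genes. It held for 10 of 13 plasminogen activator and metalloproteinase genes and 11 of 16 AP-1 and immediate early genes, with ratios of 1.12 and 1.16. None of the 13 mitochondrially encoded genes had it, and their ratio was 0.872. Without replicate 1 the log2 difference of HSPA6 was 8.39 and without replicate 3 it was 8.98, and DNAJB1 gave 2.94 and 3.41. What sets the high-dose libraries apart from each other was not tested.

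**Figure D2:**
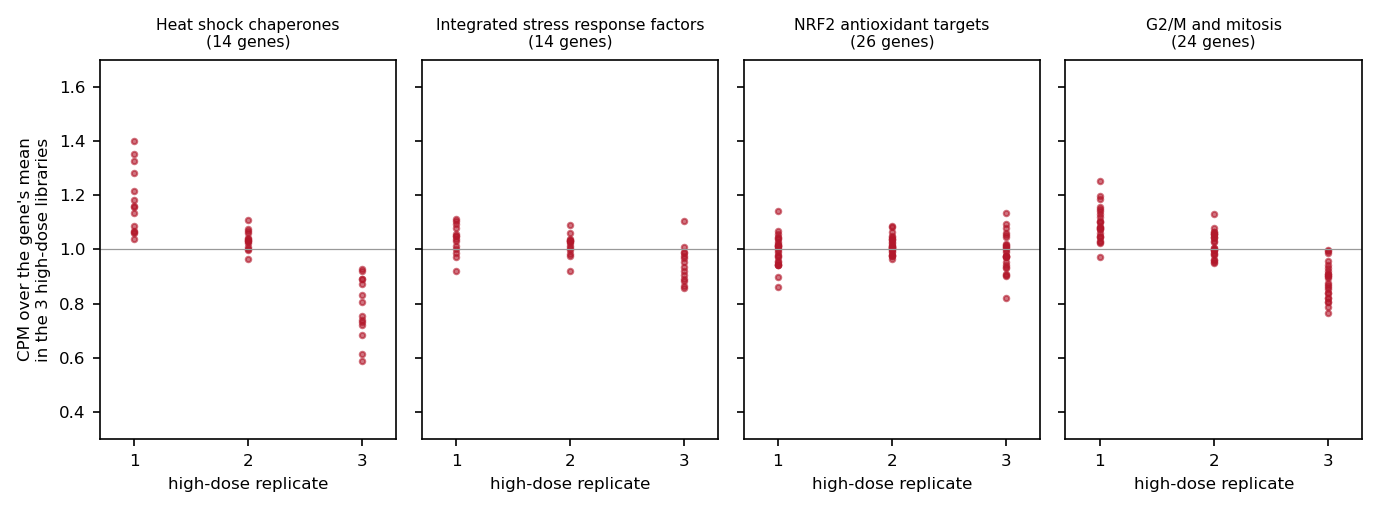
CPM of each list member in the 3 high-dose libraries, divided by the gene's mean over these libraries, for members of at least 5 CPM. Of the lists shown, the 14 heat shock chaperones spread most, with replicate 1 high and replicate 3 low. The 14 integrated stress response factors and 26 NRF2 targets stay closer to 1.

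All 14 integrated stress response genes tested rose at the high dose, with a median log2 difference of 3.44, where 32.6% of all genes tested rose. Of the 14, 6 were already above both baselines at 44 µg/mL, a shape shown by 3.27% of all genes tested in either direction. ATF3, an early stress transcription factor, had 268, 256 and 221 CPM in the high-dose libraries, against 3.35, 4.48 and 4.54 CPM in the medium-dose libraries (log2 difference 5.92 ± 0.13, adjusted p = 1.25e-35). GDF15, a secreted stress hormone of the TGF-beta family, had 433, 443 and 422 CPM, against 8.87, 7.47 and 6.29 CPM. TRIB3, a pseudokinase induced by ATF4 and CHOP, had 1125, 1083 and 1002 CPM, against 34.0, 37.3 and 33.7 CPM. These 3 genes were above the vehicle at 44 µg/mL too, ATF3 by 0.56, GDF15 by 1.02 and TRIB3 by 0.53 on the log2 scale. CHAC1, a glutathione-degrading enzyme, was higher at the high dose by 4.27 ± 0.1 on the log2 scale (adjusted p = 1.42e-34). NUPR1, a stress-induced chromatin protein, had 132, 132 and 117 CPM in the high-dose libraries, against 7.93, 8.91 and 8.47 CPM in the medium-dose libraries, and at 44 µg/mL it was not called against the vehicle (log2 difference 0.16 ± 0.16, adjusted p = 0.551).

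Of 19 genes of amino acid synthesis and transport, 17 rose and 1 fell, and 15 of the rises were at least 2-fold. Among all genes tested 32.6% rose, 9.76% rose at least 2-fold and 33.9% fell. CTH, which makes cysteine from cystathionine, had 108, 111 and 105 CPM in the high-dose libraries, against 8.02, 8.91 and 8.58 CPM in the medium-dose libraries (log2 difference 3.67 ± 0.13). SLC3A2, the shared heavy chain of several amino acid transporters, had 2272, 2198 and 2179 CPM, against 268, 277 and 249.2 CPM. ASNS had 531, 548 and 563 CPM, against 76.4, 83.2 and 78.7 CPM (adjusted p = 4.21e-38), and SLC1A4, a neutral amino acid transporter, had 195, 193 and 199 CPM, against 34.6, 35.2 and 35.7 CPM. ASNS and SLC3A2 were above both baselines at 44 µg/mL, and CTH and SLC1A4 were within 0.25 of both on the log2 scale. ALDH18A1, which starts proline synthesis, was lower at the high dose (log2 difference -0.52 ± 0.041).

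Of 18 cytosolic aminoacyl-tRNA synthetases, which charge tRNAs, 12 rose, 2 fell and 4 were not called (median 0.76). Library totals gave 11 higher and 7 lower (median 0.37). Among all genes tested 32.6% rose and 33.9% fell with TMM scaling. GARS1, for glycine, had 1444, 1529 and 1365 CPM in the high-dose libraries, against 247, 245 and 250.1 CPM in the medium-dose libraries. YARS1, CARS1 and AARS1 rose by 1.55, 1.43 and 1.36 on the log2 scale, and HARS1, for histidine, was lower at the high dose (log2 difference -0.34 ± 0.055). The rises thus did not extend to all synthetases.

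The unfolded protein response of the endoplasmic reticulum rose in a few members by much and in the rest by little. Of 18 genes 15 rose, but only 4 of them at least 2-fold, and the median log2 difference was 0.42, or 0.03 with scaling by library totals, under which 7 were higher and 3 lower. Among all genes tested 32.6% rose, and 9.76% rose at least 2-fold, with TMM scaling. DNAJB9, a chaperone of the endoplasmic reticulum, had 590.5, 561 and 512 CPM in the high-dose libraries, against 44.2, 41.0 and 39.3 CPM in the medium-dose libraries. HERPUD1, which takes part in degradation of misfolded proteins, had 768, 755 and 662 CPM, against 94.6, 91.9 and 93.1 CPM, and XBP1 had 601, 577 and 465 CPM, against 118, 119 and 110.3 CPM. SDF2L1, a cofactor of the main reticulum chaperone, rose by 1.07 ± 0.14. HERPUD1 had been lower than the vehicle at 44 µg/mL (log2 difference -0.47 ± 0.073, adjusted p = 4.72e-06), but not lower than Cinnamomi Cortex low dose, against which its log2 difference was 0.27.

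The NRF2 targets were already raised at 44 µg/mL. All 27 tested were higher than the vehicle at the medium dose, where 7.75% of all genes tested were higher, with a median log2 difference of 0.85. From the medium to the high dose 22 rose further and 2 fell (median 0.98), or 20 and 5 with library totals (median 0.59). At that step 32.6% of all genes tested rose and 33.9% fell with TMM scaling. Of the 27, 20 rose at both steps and 3 were held at their 44 µg/mL level. Among all genes tested 1.57% rose at both steps and 0.187% were held at a higher level. HMOX1, haem oxygenase 1, had 6633, 6691 and 5788 CPM in the high-dose libraries, against 1070.5, 994 and 855 CPM in the medium-dose libraries and 84.3 CPM in the vehicle. Its log2 difference was 2.71 ± 0.094 between the doses and 3.53 ± 0.099 between the medium dose and the vehicle, so the first step was the larger for this gene. For AKR1C1, an aldo-keto reductase with near-identical relatives among which reads may be split, the values were 555, 624 and 677 CPM, against 65.7, 67.8 and 59.9 CPM. OSGIN1 and SRXN1, which encodes sulfiredoxin, rose by 2.82 ± 0.12 and 2.46 ± 0.055.

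NQO1, a quinone reductase and a standard NRF2 target, had 376, 409.7 and 397 CPM in the high-dose libraries, against 384, 400.3 and 374 CPM in the medium-dose libraries. The groups overlapped, and both were about 3 times the vehicle mean of 127 CPM. The log2 difference between the doses was 0.03 ± 0.061 (adjusted p = 0.674), although scaling by library totals gave -0.36, a called fall. ABCC3, a conjugate exporter, was lower at the high dose (log2 difference -0.61 ± 0.076). NFE2L2, the gene of NRF2 itself, had 186, 197 and 174 CPM, against 62.6, 74.1 and 58.2 CPM (log2 difference 1.52 ± 0.13), with no called difference at 44 µg/mL from the vehicle (-0.30 ± 0.13, adjusted p = 0.119).

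All 22 genes of lysosomes and their proton pump rose, 12 of them at least 2-fold (median 1.09). Among all genes tested 32.6% rose, 9.76% rose at least 2-fold and 33.9% fell. ATP6V0D2, a pump subunit best known from osteoclasts, had 33.5, 35.7 and 34.2 CPM in the high-dose libraries, against 0.457, 0.3997 and 0.572 CPM in the medium-dose libraries, the second largest rise of the named genes. The widely used subunits ATP6V1B2 and ATP6V1C1 rose by 1.95 ± 0.052 and 1.67 ± 0.068. Of 19 autophagy genes 17 rose and none fell (median 0.75), and with library totals 14 were higher and 2 lower (median 0.36). GABARAPL1 had 214, 213 and 207 CPM, against 21.3, 22.1 and 21.9 CPM, and MAP1LC3B, its relative on autophagosome membranes, had 839, 875 and 762 CPM, against 110.0, 104 and 99.6 CPM. SQSTM1, a cargo receptor that NRF2 also drives, rose by 1.76 ± 0.094. Of 22 proteasome subunits 20 rose, none of them 2-fold. Their median was 0.44, or 0.05 with scaling by library totals, under which 5 were higher and 3 lower. The largest of these rises was PSMD14, at 0.86 ± 0.065.

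**Figure D3:**
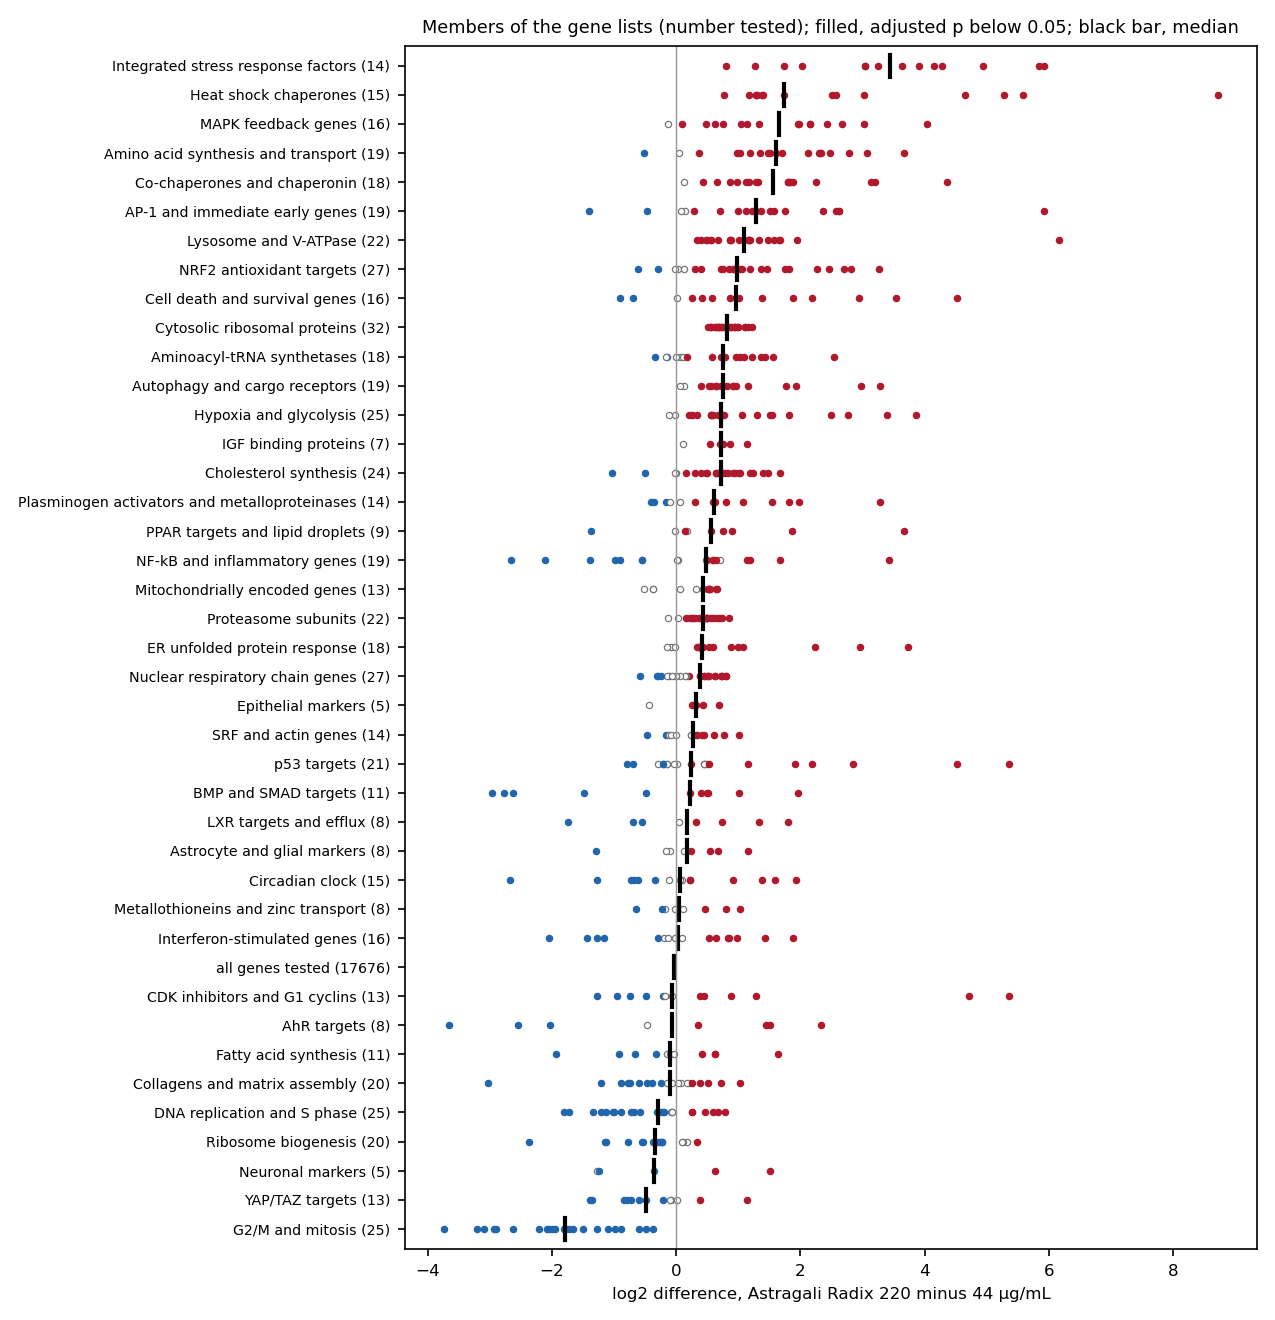
Log2 difference of high minus medium dose for each tested member of the 40 gene lists, ordered by list median (black bar), with the number tested in parentheses. Filled points passed an adjusted p below 0.05. The integrated stress response and heat shock lists lie wholly to the right of 0 and the G2/M list wholly to the left, while the median of all 17676 genes is near 0.

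All 25 genes of G2/M and mitosis fell at the high dose, 20 of them at least 2-fold, with a median log2 difference of -1.79, where 33.9% of all genes tested fell and 14.4% fell at least 2-fold. At 44 µg/mL 8 of them were lower than the vehicle, where 8.81% of all genes tested were lower, with a median of -0.17. Against Cinnamomi Cortex low dose only 1 of the 25 was lower, and the list median was -0.0079. Of all 17676 genes tested, 1106 were lower in that comparison. MKI67, which encodes the proliferation antigen Ki-67, had 14.5, 15.4 and 14.9 CPM in the high-dose libraries, against 193, 206 and 201 CPM in the medium-dose libraries (log2 difference -3.74 ± 0.16, adjusted p = 3.47e-25). CENPE, a kinetochore motor, had 5.97, 4.54 and 3.87 CPM, against 43.0, 44.97 and 46.1 CPM. TOP2A, the topoisomerase that untangles chromosomes, had 59.1, 53.9 and 51.8 CPM, against 413, 416 and 425 CPM, and ASPM, a spindle pole protein, had 12.7, 11.6 and 12.1 CPM, against 102, 103 and 105 CPM. In each of these genes the groups did not overlap and were separated by several fold. Outside the list, the kinesin gene KIF18B fell by 3.54 and the helicase gene PIF1 by 3.36 on the log2 scale.

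Genes of DNA replication moved less and in both directions. Of 25, 16 fell, 6 rose and 3 were not called (median -0.29), and with library totals 19 fell and 3 rose (median -0.68). Among all genes tested 33.9% fell and 32.6% rose with TMM scaling. GINS1, part of the replicative helicase, had 10.6, 10.8 and 10.3 CPM in the high-dose libraries, against 36.7, 37.2 and 36.4 CPM in the medium-dose libraries, MCM10 fell by 1.72 and RRM2, a ribonucleotide reductase subunit, by 1.34 on the log2 scale. CDC6, which licenses origins, was higher, with 165, 162 and 143 CPM, against 88.9, 93.6 and 89.96 CPM. Among the kinase inhibitors CDKN1C (p57) had 21.9, 19.4 and 11.9 CPM, against 0.732, 0.680 and 0.605 CPM, and CDKN2B (p15) rose by 1.29 ± 0.044. CCND1, cyclin D1, had 92.5, 83.0 and 94.9 CPM, against 213, 222 and 219 CPM (log2 difference -1.28 ± 0.063, adjusted p = 2.28e-22).

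CDKN1A is also a target of p53. Of 21 tested p53 targets, 10 rose and 3 fell, where 32.6% of all genes tested rose and 33.9% fell. The other 8 targets were not called, and the list median was 0.24. Upper quartile scaling gave 9 higher and 8 lower, and library totals gave 6 higher and 10 lower with a median of -0.15. BBC3 (PUMA), a pro-death BH3 protein, had 11.3, 11.3 and 8.48 CPM in the high-dose libraries, against 0.427, 0.520 and 0.404 CPM in the medium-dose libraries. GADD45A rose by 2.85 ± 0.084 and TNFRSF10B, the death receptor DR5, by 2.19 ± 0.045. BBC3, GADD45A and TNFRSF10B are known to be induced by ATF4 or CHOP as well. Which factor lies behind the rises of these genes was not tested. MDM2, the p53 ubiquitin ligase and a standard p53 target, had 62.5, 63.8 and 63.8 CPM, against 44.6, 47.2 and 47.2 CPM (log2 difference 0.45 ± 0.08, but 0.06 with library totals, adjusted p = 0.524), and ZMAT3 was lower at the high dose (log2 difference -0.79 ± 0.12).

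Of 16 cell death and survival genes 13 rose and 2 fell (median 0.96), where 32.6% of all genes tested rose and 33.9% fell. PMAIP1 (NOXA), another BH3 protein, had 401, 422 and 375 CPM in the high-dose libraries, against 52.5, 51.0 and 52.9 CPM in the medium-dose libraries (adjusted p = 6.59e-27). BCL2L11 (BIM) rose by 1.89 ± 0.1. BIRC3, an inhibitor of apoptosis and NF-kB target, was lower at the high dose (log2 difference -0.90 ± 0.11). Transcript levels alone do not measure cell death.

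Ribosomal protein genes and the genes that build ribosomes moved in opposite directions. All 32 cytosolic ribosomal protein genes tested rose (median 0.82, range within 0.52 to 1.23), and 28 did so with scaling by library totals. RPS9 had 439, 444 and 395 CPM in the high-dose libraries, against 173, 189 and 184 CPM in the medium-dose libraries, and RPL3 rose by 1.11 ± 0.086. These genes have many processed pseudogenes, so single values depend on how the counting shared reads. Of 20 ribosome biogenesis genes 16 fell and 1 rose (median -0.34), where 33.9% of all genes tested fell and 32.6% rose. UTP20, of the small subunit processome, had 15.3, 14.6 and 16.5 CPM, against 76.5, 80.9 and 80.5 CPM, and POLR1A, the largest subunit of RNA polymerase I, had 46.9, 46.4 and 56.9 CPM, against 109, 107 and 114 CPM. RRS1 fell by 1.12 on the log2 scale.

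Feedback genes of the MAPK pathway rose in 15 of 16 cases (median 1.65) and none fell with TMM, while 2 were lower with scaling by library totals. Among all genes tested 32.6% rose and 33.9% fell with TMM. DUSP5, a nuclear phosphatase of ERK, had 399.6, 400.2 and 350.2 CPM in the high-dose libraries, against 23.4, 24.2 and 22.1 CPM in the medium-dose libraries (log2 difference 4.04 ± 0.068, adjusted p = 3.16e-40). DUSP1 had 341, 321 and 292 CPM, against 48.6, 52.1 and 49.4 CPM, and SPRY2, a receptor signalling inhibitor, rose by 2.15 ± 0.072. Of 19 AP-1 and immediate early genes 15 rose and 2 fell. FOSB, KLF4 and FOS rose by 2.63, 2.62 and 2.58 on the log2 scale, and EGR3 was lower, with 2.56, 2.09 and 2.03 CPM, against 5.49, 6.12 and 6.12 CPM. The fall of EGR3 stands against the rise of most genes of its list.

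Of 19 tested NF-kB and inflammatory genes 8 rose and 6 fell, where 32.6% of all genes tested were higher and 33.9% lower, and library totals gave 7 higher and 8 lower. CXCL8, the neutrophil chemokine IL-8, had 125, 118 and 103 CPM in the high-dose libraries, against 10.7, 11.1 and 10.5 CPM in the medium-dose libraries (log2 difference 3.43 ± 0.14). CCL2, the monocyte chemokine MCP-1, had 2.61, 1.79 and 1.91 CPM, against 12.6, 13.2 and 14.0 CPM (log2 difference -2.65 ± 0.22), and at 44 µg/mL it was already lower than the vehicle (log2 difference -1.64 ± 0.15). PTGS2, cyclooxygenase 2, had 184, 178 and 165 CPM, against 51.2, 52.4 and 61.4 CPM. At 44 µg/mL PTGS2 was lower than the vehicle (log2 difference -0.76 ± 0.13) but level with Cinnamomi Cortex low dose (0.01 ± 0.13), so its position at the medium dose depends on the baseline. The eotaxin gene CCL26 had 54.9, 49.9 and 34.7 CPM, against 3.51, 3.80 and 2.99 CPM.

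Cholesterol synthesis genes rose at the high dose in 20 of 24 cases and fell in 2 (median 0.72), or in 13 and 4 with library totals (median 0.33). At 44 µg/mL none was higher and 5 were lower than the vehicle, where 7.75% of all genes tested were higher and 8.81% lower. Against Cinnamomi Cortex low dose 1 was higher and 4 were lower, as were 817 and 1106 of the 17676 genes tested. MSMO1 had 131, 139 and 127 CPM in the high-dose libraries, against 42.0, 42.5 and 40.2 CPM in the medium-dose libraries, and HMGCS1, the HMG-CoA synthase, had 152, 152 and 139.5 CPM, against 51.7, 52.8 and 53.7 CPM. INSIG1, a sterol sensor partner, rose by 1.40 ± 0.064. LSS, lanosterol synthase, was lower, with 48.3, 48.7 and 50.2 CPM, against 67.5, 71.7 and 69.5 CPM. Of 11 fatty acid synthesis genes 4 rose and 4 fell, where 32.6% of all genes tested rose and 33.9% fell. For this list library totals gave 3 higher and 7 lower. Of its members SCD, a desaturase, rose by 1.64 ± 0.068. ACACA, acetyl-CoA carboxylase, fell to 84.2, 84.9 and 91.0 CPM at the high dose, against 165, 159.8 and 167 CPM at the medium dose. PLIN2, the coat protein of lipid droplets, had 1268, 1309.5 and 1254 CPM, against 104, 104 and 92.3 CPM (log2 difference 3.67 ± 0.068, adjusted p = 1.39e-38), while SLC25A20, the carnitine carrier of mitochondria, had 7.88, 8.25 and 7.13 CPM, against 19.3, 19.9 and 20.9 CPM.

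Hypoxia and glycolysis genes rose in 22 of 25 cases and none fell (median 0.73), where 32.6% of all genes tested rose and 33.9% fell. Under scaling by library totals 4 of the list were lower. Of these 25, 10 rose at both steps, as did 1.57% of all genes tested. NDRG1 had 1075, 1066 and 1157 CPM in the high-dose libraries, against 79.98, 74.5 and 73.3 CPM in the medium-dose libraries. ADM, the vasodilator peptide adrenomedullin, had 175, 180.4 and 154 CPM, against 16.1, 16.8 and 15.8 CPM, and HK2, a hexokinase, had 581, 559.6 and 605 CPM, against 84.4, 87.1 and 84.3 CPM. The glucose transporter gene SLC2A3 rose by 2.49 ± 0.067. NDRG1, ADM, HK2 and SLC2A3 were each above both baselines at 44 µg/mL, by 0.51, 0.57, 0.65 and 0.43 over the vehicle.

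The targets of BMP signalling, which acts through SMAD proteins, were lower than the vehicle at 44 µg/mL in 10 of 11 cases (median -0.60), where 8.81% of all genes tested were lower. They were lower than Cinnamomi Cortex low dose in 8 of 11 cases, where 1106 of all 17676 genes tested were lower. From the medium to the high dose 5 fell and 6 rose, where 33.9% of all genes tested fell and 32.6% rose. Under scaling by library totals 5 of the list fell and 1 rose. ID1, an inhibitor of differentiation factors, had 25.2, 25.3 and 27.9 CPM in the high-dose libraries, against 167, 162 and 153 CPM in the medium-dose libraries and 228 CPM in the vehicle (log2 difference between the doses -2.62 ± 0.16). ID3 had 42.7, 40.6 and 38.3 CPM, against 121, 117 and 104 CPM, and SMAD6, a feedback inhibitor, had 1.31, 1.48 and 1.17 CPM, against 11.5, 9.55 and 10.3 CPM. ATOH8 fell by 2.77 on the log2 scale. HEY1, which BMP and Notch signals both drive, was higher at the high dose, with 16.4, 14.4 and 14.1 CPM, against 4.18, 3.84 and 3.53 CPM.

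Among 13 targets of YAP and TAZ, the effectors of the Hippo pathway, 8 fell and 2 rose, or 11 and 1 with library totals. Over all genes tested 33.9% fell and 32.6% rose. F3, tissue factor, and CCN1, a matrix protein, are described below with the genes that reverse. CCN2, the relative of CCN1, had 77.6, 68.6 and 64.4 CPM in the high-dose libraries, against 109.5, 105 and 105 CPM in the medium-dose libraries. LATS2, a kinase of the pathway, rose by 1.14 ± 0.072. In the list of collagens and matrix genes 9 fell and 5 rose of 20, where 33.9% of all genes tested fell and 32.6% rose. Library totals gave 13 lower and 2 higher, and removal of length and GC trends gave 8 lower and 7 higher, with the median at 0.04 in place of -0.11. THBS1, thrombospondin 1, had 299, 250.3 and 269 CPM, against 2136, 2218 and 2334 CPM, COL1A1 had 1555, 1350.1 and 1303 CPM, against 3181, 3269 and 3305 CPM, and LOX, the collagen crosslinking enzyme, rose by 1.02 ± 0.098. Of the plasminogen activators and metalloproteinases 9 of 14 rose and 3 fell, or 7 and 5 with library totals, with MMP1 rising by 1.82 ± 0.058 and MMP3 by 1.97 ± 0.11.

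CYP1B1, a xenobiotic-metabolising enzyme driven by the aryl hydrocarbon receptor, had 8.74, 9.03 and 9.35 CPM in the high-dose libraries, against 115, 109 and 118 CPM in the medium-dose libraries (log2 difference -3.66 ± 0.071, adjusted p = 6.75e-38). AHRR, the repressor of that receptor, had 9.14, 8.29 and 9.16 CPM, against 36.5, 34.1 and 37.7 CPM. Both fell several fold, but of the 8 genes in the list 4 rose and 3 fell. In the clock list 6 genes rose and 6 fell of 15, with BMAL1 at 31.4, 27.4 and 27.5 CPM, against 7.53, 8.07 and 6.99 CPM, NR1D1, a repressor of BMAL1, higher by 1.60 ± 0.07, and PER2 lower (log2 difference -1.28 ± 0.1). Of 16 interferon-stimulated genes 7 rose and 5 fell, among them IFIT2, which rose by 1.88 ± 0.16, and IFI44L, which was lower (log2 difference -1.43 ± 0.084). Beside the counts of these lists, 32.6% of all genes tested rose and 33.9% fell. With library totals 4 clock genes were higher and 11 lower, 6 interferon-stimulated genes were higher and 9 lower, and 3 genes of the receptor list were higher and 4 lower.

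Nuclear respiratory chain genes rose in 15 of 27 cases and fell in 5, where 32.6% of all genes tested rose and 33.9% fell. The list median was 0.38, or -0.0087 with scaling by library totals, under which 7 rose and 12 fell. COX6C rose by 0.80 ± 0.13. Of the 13 protein-coding genes of the mitochondrial genome 6 rose and 7 were not called, while upper quartile scaling gave 2 higher and 3 lower and library totals 3 lower. The values of the 2 doses did not overlap for 12 of the 13, as for 73.4% of all genes tested. At 44 µg/mL 10 of the 13 were lower than the vehicle, where 8.81% of all genes tested were lower. None of the 13 was called against Cinnamomi Cortex low dose, where 10.9% of all genes tested were called. MT-ND4, not called with library totals, had 9373, 9609 and 10389 CPM in the high-dose libraries, against 6304, 6402 and 5985 CPM in the medium-dose libraries. Its adjusted p was 0.0119 in the main fit and 3.1e-09 without the 2 low-dose Astragali Radix libraries that stand apart (edgeR quasi-likelihood test). Mitochondrial genes took 5.7% to 6.21% of counts at the high dose, 4.97% to 5.03% at the medium dose, 5.96% to 6.11% in Cinnamomi Cortex low dose and 7.55% to 8.04% in the vehicle. In the low-dose Astragali Radix libraries, which are in the same fit, the shares were 5.93%, 1.38% and 4.97%.

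Among the largest rises outside these lists were BEX2, with 8.89, 10.2 and 6.89 CPM in the high-dose libraries, against 0.122, 0.120 and 0.135 CPM in the medium-dose libraries, and the non-coding LINC02154, with 16.7, 17.0 and 15.4 CPM, against 0.488, 0.320 and 0.202 CPM. ARC, a neuronal immediate early gene, had 34.2, 26.9 and 18.7 CPM, against 0.884, 0.560 and 0.572 CPM. PHLDA1-AS1, antisense to the feedback gene PHLDA1, had 22.3, 16.0 and 9.10 CPM, against 0.793, 0 and 0 CPM. It was not called by DESeq2 (adjusted p = 0.0715), and its fitted log2 difference of 5.75 became 11.78 without medium-dose replicate 1, the only medium-dose library above 0. Because the strand setting of the counting is not given in the sources used here, reads of antisense genes and their partners cannot be told apart. The same holds for ALDH1A3-AS1, which had 1.91, 1.88 and 2.34 CPM, against 37.6, 37.6 and 42.6 CPM, the largest fall of the named genes. GLI2, a transcription factor of Hedgehog signalling, had 0.854, 0.349 and 0.799 CPM, against 6.74, 7.63 and 6.22 CPM, MN1 had 3.06, 2.44 and 2.52 CPM, against 31.7, 29.9 and 33.5 CPM, and NDP, the secreted Wnt ligand norrin, had 5.57, 3.97 and 4.98 CPM, against 47.0, 50.5 and 48.6 CPM.

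The medium dose by itself changed 2927 genes against the vehicle (16.6%) and 1923 against Cinnamomi Cortex low dose (10.9%), and these 2 baselines differed from each other in 2342 genes (13.2%). The genes that moved the same way against both numbered 896 (5.07%), 361 higher (2.04%) and 535 lower (3.03%). Without the 2 low-dose Astragali Radix libraries that stand apart this count was 2338. The shapes of response described next use these comparisons together with that of the high and medium dose. They share libraries, so the shapes are descriptions, and membership near a threshold can change with the baseline.

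Responses that appeared only above 44 µg/mL were defined as a called change of at least 2-fold from the medium to the high dose, with the medium dose uncalled and within 0.25 on the log2 scale of both baselines. This held for 1505 genes (8.51%), 584 higher (3.3%) and 921 lower (5.21%) at the high dose. Among them were 7 of 15 heat shock chaperones, 9 of 18 co-chaperones, 13 of 25 G2/M genes and 6 of 25 replication genes, but no NRF2 target. The largest rises were CDKN1A, ARC, HSPA1A, BBC3, C11orf96, HES4, NUPR1 and CCL26, and the largest falls were NDP, CENPE, SPC24, ASPM, KIF20B, STARD4-AS1, PSRC1 and TOP2A. SPC24, PSRC1 and KIF20B serve the spindle or cytokinesis. SPC24 had 3.51, 2.57 and 2.77 CPM in the high-dose libraries, against 25.8, 26.1 and 26.1 CPM in the medium-dose libraries, 27.4 CPM in Cinnamomi Cortex low dose and 26.6 CPM in the vehicle. HES4, a Notch target, had 21.6, 17.98 and 15.6 CPM, against 1.31, 0.959 and 1.14 CPM, 1.18 CPM and 1.18 CPM in the same groups. HSPA6 was left out by the limit, because its medium-dose level, although not called against either baseline, differed from the vehicle by 1.19 ± 0.67 at less than 1 CPM. MKI67 was left out because it was lower than the vehicle at 44 µg/mL (log2 difference -0.46 ± 0.13, adjusted p = 0.0113), and CYP1B1 because it was lower than Cinnamomi Cortex low dose (log2 difference -0.22 ± 0.058, adjusted p = 0.00839). A limit of 0.5 in place of 0.25 gave 2424 genes, the vehicle as the only baseline 2275 and Cinnamomi Cortex low dose as the only baseline 2269. Without the 2 low-dose Astragali Radix libraries that stand apart the count was 1079, and 1027 of the 1505 genes were kept. Removal of length and GC trends gave 1297.

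Genes that changed at 44 µg/mL against both baselines and changed further the same way at 220 µg/mL numbered 578 (3.27%), 277 higher (1.57%) and 301 lower (1.7%). Besides HMOX1, SRXN1, DDIT3 and PLIN2, they included KLF4, GADD45A and the solute carrier gene SLC3A2 among the rises, and ID1, ID3, CCL2, ATOH8 and the metallothionein gene MT1E among the falls. MT1E, whose relatives are near-identical enough for reads to be split among them, had 4.22, 4.97 and 2.95 CPM in the high-dose libraries, against 7.07, 6.04 and 6.12 CPM in the medium-dose libraries and 27.98 CPM in the vehicle.

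Responses that were complete at 44 µg/mL were fewer. In 128 genes (0.724%) the 44 µg/mL level was held at 220 µg/mL, 33 of them higher (0.187%) and 95 lower (0.537%) than the baselines. ALAS1, the first enzyme of haem synthesis, had 117, 119.6 and 129.6 CPM in the high-dose libraries, against 129.5, 124 and 125 CPM in the medium-dose libraries and 65.6 CPM in the vehicle, and after removal of length and GC trends its log2 difference of -0.05 between the doses became 0.13, a called rise. It was a called fall with upper quartile scaling (-0.18) and with library totals (-0.44). MT2A, a metal-binding metallothionein, had 169, 171 and 147 CPM, against 202, 177 and 175 CPM and 477 CPM in the vehicle, and the groups of the 2 doses differed by -0.18 ± 0.11 (adjusted p = 0.14). PADI2, a peptidylarginine deiminase, had 1.61, 1.79 and 1.84 CPM, against 2.13, 2.12 and 1.85 CPM and 6.92 CPM in the vehicle. ITGB4, the integrin beta 4 subunit, and LYPD1 were likewise held low. With library totals MT2A (-0.57), PADI2 (-0.61) and LYPD1 (-0.52) were called lower at the high dose, and MT2A also with upper quartile scaling (-0.32) and in the 6 libraries alone (-0.22), as was LYPD1 with upper quartile scaling (-0.26). A further 44 genes (0.249%) returned to the baselines at 220 µg/mL, 16 from above (0.0905%) and 28 from below (0.158%). ANGPT1, the vessel ligand angiopoietin 1, had 2.76, 2.84 and 2.27 CPM, against 4.54, 5.88 and 4.78 CPM and 2.62 CPM in the vehicle.

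**Figure D4:**
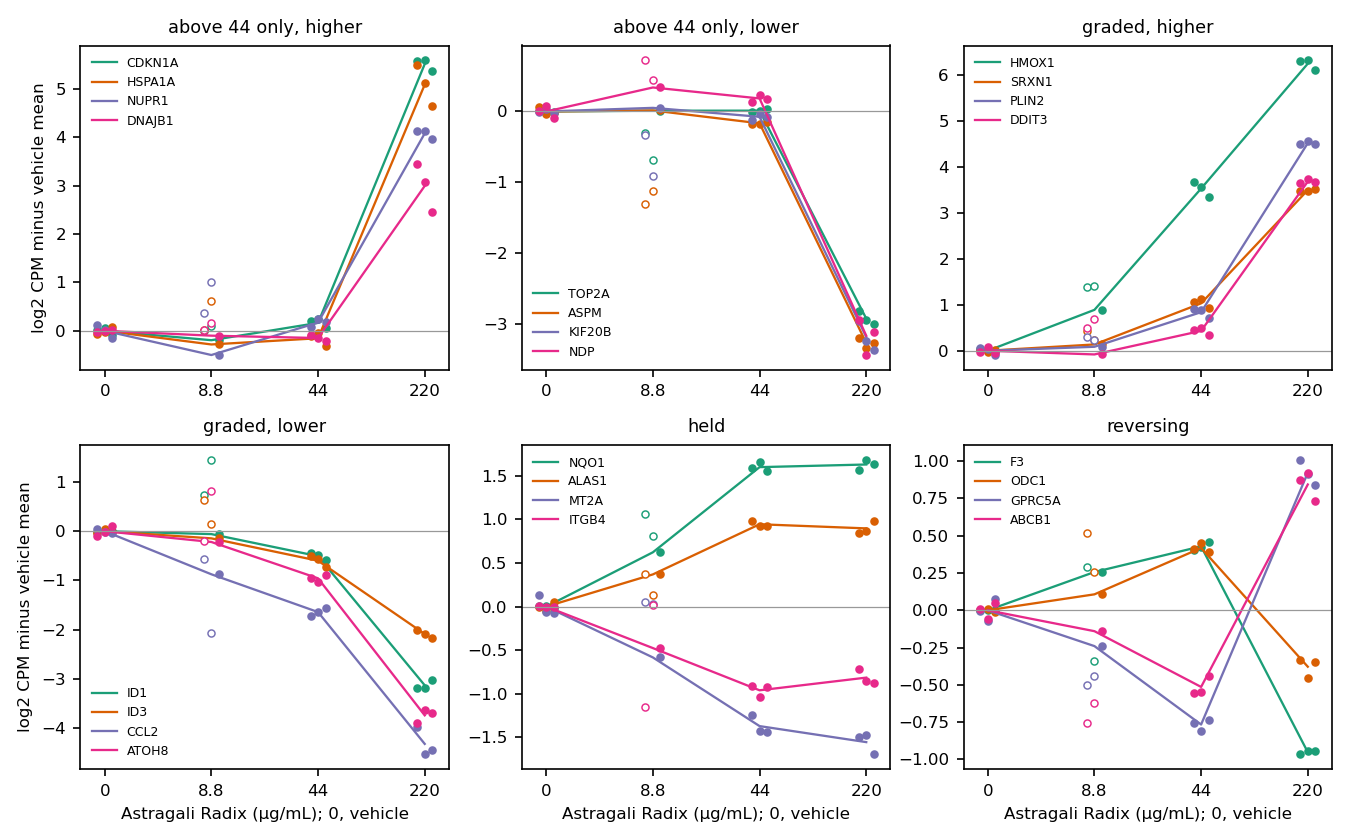
Log2 CPM minus the vehicle mean against the dose of Astragali Radix for 4 genes of each shape, with every library as a point. Open points at 8.8 µg/mL are the 2 libraries that stand apart, and the lines pass through the third there and through the group means elsewhere. Genes of the upper left and upper middle panels stay near 0 up to 44 µg/mL, held genes are level from 44 to 220 µg/mL, and reversing genes cross 0 between them.

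Genes that moved in opposite directions at the 2 doses were rare. Against both baselines 56 genes (0.317%) were called one way at 44 µg/mL and the other way at 220 µg/mL. Of these, 22 (0.124% of genes tested) were lower at the high and higher at the medium dose, and 34 (0.192%) were higher at the high and lower at the medium dose. F3, the trigger of blood clotting, had 77.4, 78.5 and 78.6 CPM in the high-dose libraries, against 199.96, 203 and 207 CPM in the medium-dose libraries, with 129 CPM in Cinnamomi Cortex low dose and 151 CPM in the vehicle. The baselines lay between the doses. Against the vehicle its log2 difference was -0.95 ± 0.076 (adjusted p = 2.96e-15) at the high dose and 0.43 ± 0.074 (adjusted p = 2.78e-05) at the medium dose. ODC1, the first enzyme of polyamine synthesis, had 282, 259 and 279 CPM, against 473, 485 and 465 CPM, with 357 and 355 CPM in the same baselines. NUAK2, a stress kinase and YAP target, had 4.47, 4.58 and 3.32 CPM, against 17.7, 18.7 and 18.1 CPM, with 14.1 and 13.3 CPM. CCN1 had 325, 329.6 and 327 CPM, against 579, 583 and 598 CPM, with 390.2 and 362 CPM, and its high-dose difference from the vehicle was small (-0.14 ± 0.066, adjusted p = 0.0482). With RLE size factors or DESeq2 it no longer met the definition. LRP8, a reelin receptor, MAP1A, a microtubule protein, EML1, POP1 and ANKRD33BP1 had the same shape, but MAP1A did not meet the definition with library totals.

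In the other direction, GPRC5A, a retinoic acid-induced receptor, had 178, 166 and 158 CPM in the high-dose libraries, against 52.4, 50.4 and 52.9 CPM in the medium-dose libraries, with 90.9 CPM in Cinnamomi Cortex low dose and 88.3 CPM in the vehicle. Against the vehicle it differed by 0.92 ± 0.06 at the high dose and by -0.77 ± 0.06 at the medium dose. ABCB1, the drug efflux pump P-glycoprotein, had 59.4, 61.2 and 53.8 CPM, against 22.0, 22.1 and 23.8 CPM, with 33.4 and 32.4 CPM in the same baselines. The mitochondrial ribosomal RNA MT-RNR1 had 2362, 2452 and 2162 CPM, against 607, 605 and 606 CPM, with 827 and 936 CPM, and MT-RNR2 went the same way. The mitochondrial share of counts was 5.7% to 6.21% in the high-dose libraries, 4.97% to 5.03% in the medium-dose libraries and 7.55% to 8.04% in the vehicle, and its part in these 2 values was not tested. HEY1, given above with the BMP targets, was among these genes too, but not with library totals or DESeq2. ZBED3, KCTD16, GULP1 and SMIM3 completed the named genes of this shape, at 5 CPM or little more at the high dose for KCTD16 and GULP1. With library totals MT-RNR2, KCTD16 and GULP1 did not meet the definition either.

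How many genes reverse depended on the choices made. With the vehicle as the only baseline 466 genes reversed and with Cinnamomi Cortex low dose as the only baseline 137. Of the 56 genes, 11 met the definition under all 14 alternative fits, which changed the scaling, filter, tool, block, length and GC correction or the libraries used, among them F3, ODC1, NUAK2, GPRC5A and ABCB1. The 53 genes kept under RLE size factors, 42 under upper quartile scaling and 26 under library totals show that scaling bears on this class. Without the 2 low-dose Astragali Radix libraries that stand apart, which lend their spread to every test, 254 genes reversed, and all 56 were among them. Without medium-dose replicate 2 the count was 37 and without medium-dose replicate 3 it was 36, with 34 of the 56 kept in each case.

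**Figure D5:**
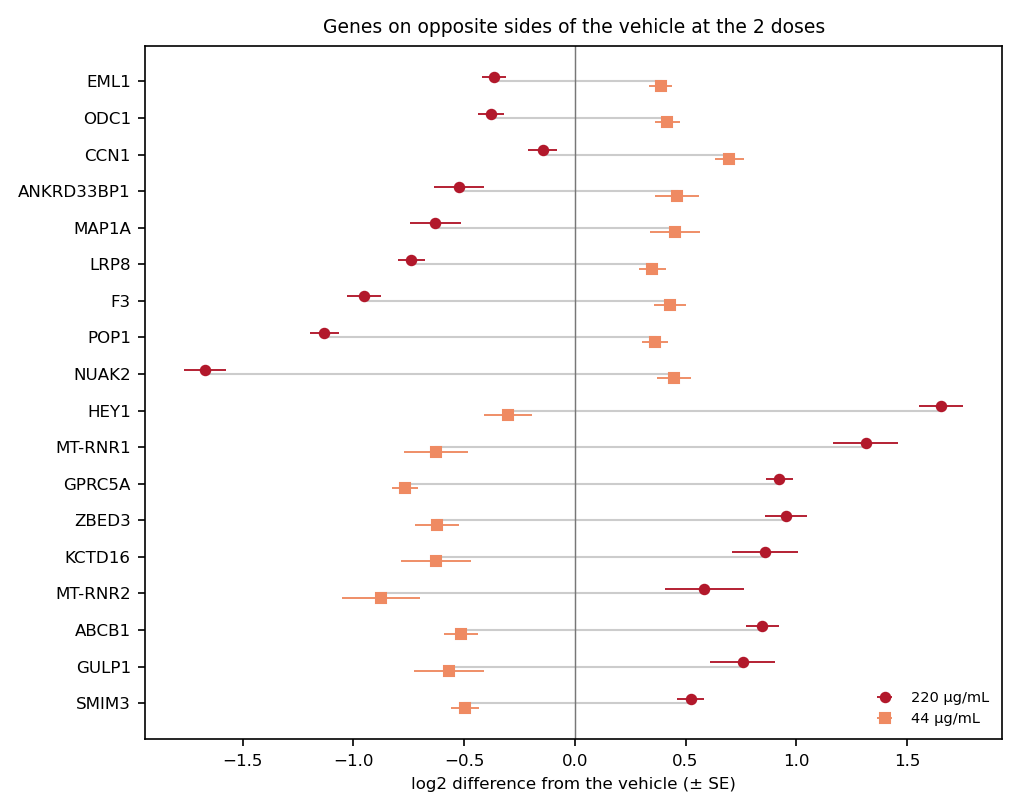
Log2 difference from the vehicle (± SE) at 220 µg/mL (circles) and 44 µg/mL (squares) for 18 genes that reverse. From EML1 to NUAK2 the high dose lies below and the medium dose above the vehicle, and from HEY1 to SMIM3 the high dose lies above and the medium dose below.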

How the data were processed

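The deposited table holds expected counts per gene, which the authors estimated with RSEM 1.3.3 after FastQC 0.11.9, Trim Galore 0.6.5 and STAR 2.7.3a on hg38, per the submitters' processing notes. Of the 279 columns, 60 belong to this series and 219 were not used. Gene positions are from GENCODE v29 (GRCh38), and gene symbols are from a separate reference list of gene names. Counts were rounded to whole numbers, since 90.8% of values were whole to within 1e-09. Genes passing filterByExpr (17676) were fitted in edgeR 4.0.16 (R 4.3.3) with TMM scaling and the quasi-likelihood test, in 1 fit of 57 libraries, the vehicle and 18 groups of 3, which share the estimate of spread. Benjamini-Hochberg adjustment ran over all genes tested, and CPM values use the TMM library sizes. Standard errors were taken as the absolute log2 difference over the square root of F. Total counts per library ranged from 19793383 to 37152367. The alternatives changed the scaling, the filter, the tool (DESeq2 1.42.0), the libraries used, the replicate block, length and GC trends and the baselines.

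Genes were named by rule: the 22 genes of a fixed list, the 12 largest rises and falls with at least 5 CPM and groups that did not overlap, up to 4 members of each of the 40 lists and the largest called the other way, and up to 8 genes each way of the classes above 44 µg/mL only and reversing, up to 4 held or returning, and all cell type markers measured. A few genes that this rule names are not reported here. The members and the lists were chosen with earlier results of these data known. Deviations from the group means of same-numbered high and medium libraries correlated at 0.04, -0.01 and 0.02, so the numbers do not pair the samples. On simulated data for this comparison (17535 genes), 22, 41, 47 and 49 of 50 genes changed by 1.25, 1.5, 2 and 4-fold were recovered and 9 of 17335 unchanged genes were called. The simulated high dose had the means of the medium dose outside the changed genes, of which as many were raised as lowered. In the real comparison most genes were called and the calls depended on scaling, so these rates do not measure its error.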

Additional observations from a re-analysis of the deposited data

How the results depend on the processing

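The 11743 calls between the high and the medium dose ranged from 10972 to 11309 when 1 of the 6 libraries was left out, and stood at 12308 with library totals, 11623 with DESeq2 and 12299 after removal of length and GC trends. The 1505 genes changed above 44 µg/mL only became 2275 with the vehicle as the only baseline, 2269 with Cinnamomi Cortex low dose alone and 2424 with a limit of 0.5, and leaving out 1 library gave 1451 to 1578. The count was 1079 without both low-dose libraries that stand apart, 1297 after removal of length and GC trends and 1887 with library totals. Of the 1505 genes, these settings kept 1027, 1069 and 981. The 56 reversing genes became 26 with no filter on low counts, 119 after removal of length and GC trends, 254 without both low-dose libraries that stand apart, 466 with the vehicle alone, 137 with Cinnamomi Cortex low dose alone and 260 with the vehicle and low-dose replicate 3 as baselines. Leaving out 1 library gave 36 to 60. The 896 genes changed at 44 µg/mL became 2338 without both low-dose libraries and 1434 after removal of length and GC trends, and the 750 graded, held or returning genes became 1901 and 1183. The cause was not tested. With library totals the list medians reversed to -0.17 for BMP targets, -0.0087 for nuclear respiratory chain genes, -0.0792 for epithelial markers, -0.15 for p53 targets, -0.21 for LXR targets, -0.11 for SRF and actin genes, -0.21 for astrocyte markers, -0.34 for metallothioneins, -0.36 for interferon-stimulated genes and -0.33 for clock genes, CD44 to -0.27, NQO1 to -0.36, KRT7 to -0.08, KRT18 to -0.14 and SOX9 to -0.15, and ALAS1 reversed to 0.13 after removal of length and GC trends, as did the medians of AhR targets to 0.11 and of collagens to 0.04. Upper quartile scaling turned the medians of metallothioneins (-0.09), interferon-stimulated genes (-0.10) and clock genes (-0.07). RLE size factors moved the median of all genes by 0.03. With the replicate number as a block, which the numbers do not pair, 11762 genes were called, 1492 changed above 44 µg/mL only and 60 reversed, and 12073 were called in the 6 libraries alone.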
